A study of Homo sapiens with 24 samples.

Results

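The results below concern a single contrast of RNA-sequencing counts from a human pancreatic ductal adenocarcinoma cell line, MIA PaCa-2: the line-by-doxycycline interaction at 8 h. For each gene it is the change from 0 h to 8 h of doxycycline in C/EBPδ-inducible cells minus the change over the same time in CTRL cells. The contrast uses 12 of the 24 libraries of the series, 3 in each of 4 groups, and these libraries were chosen from the sample labels without the use of any measured value. The C/EBPδ-inducible cells (labelled tet-on CEBPD) carried a pCW57 Tet-On construct with the CEBPD cDNA and the fluorophore mVenus, and were a pool of 3 inducible clones. The CTRL cells (labelled tet-on CTRL) carried the same transactivator and promoter without the cDNA, with the fluorophore mCherry. Doxycycline was given at 2 µg/ml to both lines, so the antibiotic and the transactivator are shared by both lines at 8 h and the cDNA is not. The labels list the same dose at 0 h as well, where the duration is 0, and the 0 h cells were taken as untreated. The libraries of a group were wells seeded in parallel, which the study calls biological triplicates for the same lines at 24 h. The sources used here do not say whether the wells came from separate cultures, so the p-values measure the spread between these samples, which may be technical.

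C/EBPδ is a basic leucine zipper transcription factor of the CCAAT/enhancer-binding protein family. Family members bind DNA as homodimers or heterodimers, with each other and with ATF4, and are known for their part in the acute-phase response, in cytokine signalling and in adipocyte differentiation. CEBPD itself is an early-response gene that is transcribed within hours of a cytokine stimulus. Doxycycline binds the transactivator of a Tet-On construct, which then switches on the cDNA behind its promoter.

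The 12 libraries held between 12731237 and 22053973 counts on genes, with a median of 18709526, and the shallowest was the third library of inducible cells at 8 h. A gene with 3 counts in a library corresponds to between 0.136 and 0.236 counts-per-million (CPM) units of the unscaled library total, which covers counting error only. Vimentin and the keratins KRT8, KRT18 and KRT19, taken here as markers of the line, were detected in all 12 libraries. The study lists vimentin as a mesenchymal marker. EPCAM, the other marker of the line, passed the filter on low counts, and its level is not reported here. KRT8 was lower in the inducible line already at 0 h, at 1487 to 1583 CPM in CTRL cells and 71.5 to 75.7 CPM in inducible cells, so the lines entered the experiment with different profiles. Among 15 markers of other cell types, PRSS1, CPA1, INS, GCG and CD3E had no count in any library, and PTPRC, DCN, VWF, LUM, PECAM1 and CELA3A had at most 5 counts in any library. The summed level of these markers of other cell types was nearly all COL1A2, a collagen gene listed as a fibroblast marker. The sum ran from 629.9 to 665 CPM in CTRL cells at 0 h and 449 to 483 at 8 h. In inducible cells it ran from 240.0 to 254 at 0 h and 137 to 152 at 8 h. The contrast subtracts each line's own 0 h level, so a log2 difference between the lines that is the same at 0 h and 8 h gives no interaction. The 0 h libraries are part of the contrast, and most genes called in it differed between the lines at 0 h, as given below.

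CEBPD was measured at 4.17, 3.69 and 3.89 CPM in CTRL cells at 0 h and 2.01, 1.31 and 2.35 at 8 h, and 18.8, 23.3 and 22.1 in inducible cells at 0 h and 265, 237 and 239 at 8 h. The inducible cells at 8 h lay far above every other library, and the inducible cells at 0 h lay above both groups of CTRL cells. The CEBPD level rose by 3.53 on the log2 scale in the inducible cells (adjusted p = 3.01e-14) and changed by -1.04 in the CTRL cells (adjusted p = 0.00149). The log2 interaction was 4.56 ± 0.20 (SE, adjusted p = 1.48e-09), with 3 libraries per group here and throughout. A log2 interaction of 1 means that the ratio of 8 h to 0 h was 2-fold higher in the inducible cells than in the CTRL cells. The counts do not separate the transcript of the construct from that of the endogenous gene.

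**Figure D1:**
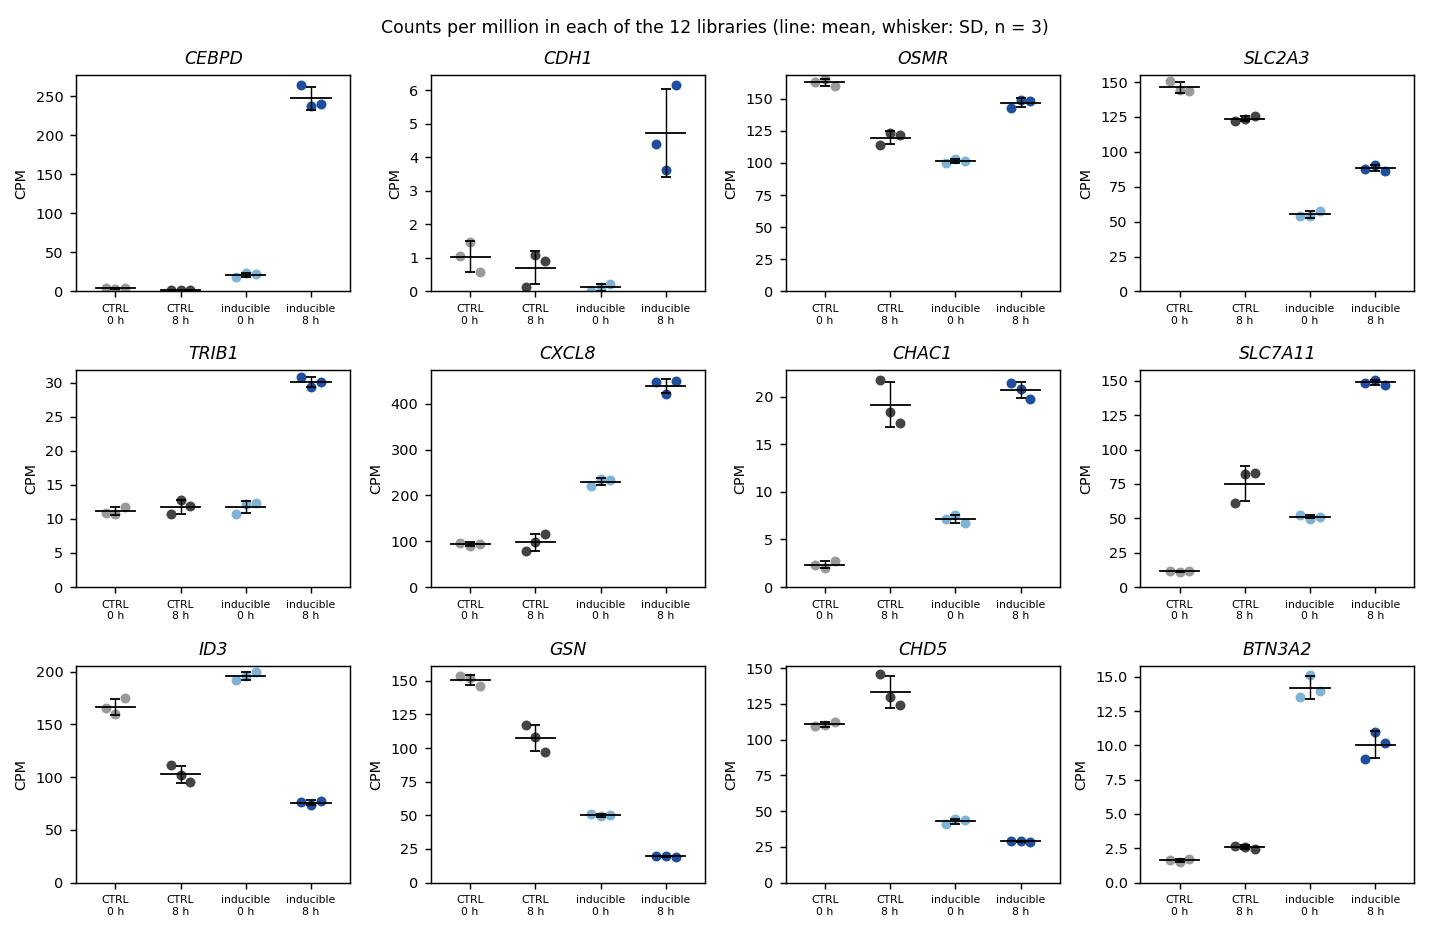
Normalised counts (CPM, counts-per-million, linear axis from 0) of 12 genes in each library; points are libraries, lines the mean and whiskers the SD of 3 libraries, in CTRL cells (grey) and C/EBPδ-inducible cells (blue) at 0 h and 8 h. CEBPD was at 237 to 265 CPM in inducible cells at 8 h and at or below 23.3 CPM in the other libraries, OSMR moved in opposite directions in the lines, and CHAC1 rose in both lines to overlapping levels from different starting levels.

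Across 16228 genes tested, 269 passed the false discovery rate (FDR, the Benjamini-Hochberg adjusted p of edgeR's quasi-likelihood test) of 0.01 in the interaction, which is 1.66% of the genes. In 144 genes (0.887%) the interaction was higher, and in 125 (0.77%) it was lower. These shares are the background for each count of called list members below. The effects were moderate: the median size among the 269 genes was 0.51 on the log2 scale, and 28 of them exceeded 1. The median over all genes tested was -0.0079, and the scaling between libraries brings such a median near 0. Within the lines, 2624 genes (16.2%) differed between 8 h and 0 h in the inducible cells and 807 (4.97%) in the CTRL cells. Of the 269 genes, 217 changed more in the inducible cells than in the CTRL cells by the size of the log2 change, as did 9867 of all 16228 genes tested. Of the 269, 170 passed the threshold in the inducible cells and not in CTRL cells, 29 in CTRL cells and not in inducible cells, 50 in both in the same direction, 11 in both in opposite directions and 9 in neither. At 0 h, 213 of the 269 genes (79.2%) differed between the lines at an FDR of 0.01, against 35.4% of all genes tested. The median log2 difference at 0 h, inducible minus CTRL, was -0.31 in genes called higher and 0.29 in genes called lower. What part of the interaction goes with the level at 0 h was not tested. These comparisons share libraries with the interaction, and the breakdown describes the 269 genes without testing anything further.

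**Figure D2:**
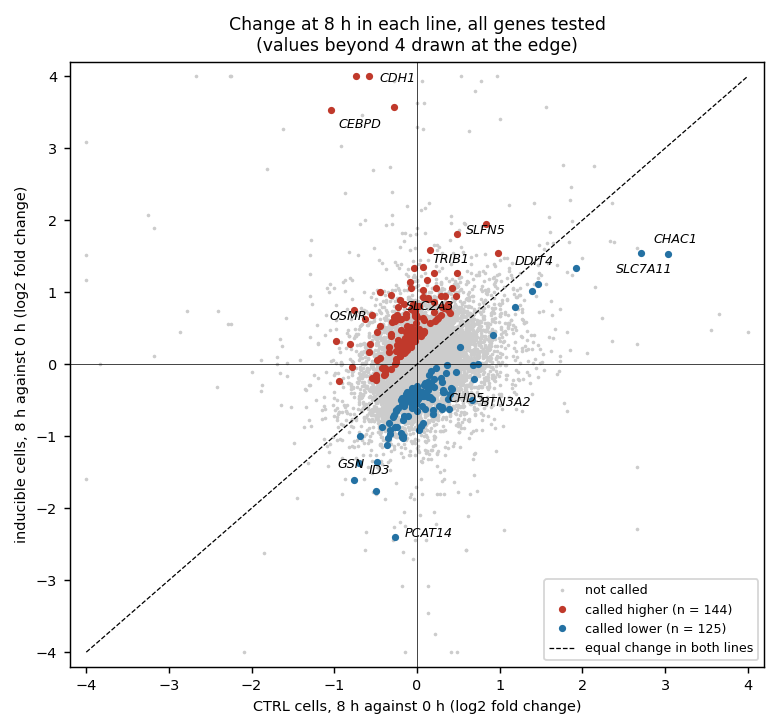
Log2 change from 0 h to 8 h in C/EBPδ-inducible cells (y axis) against the change in CTRL cells (x axis) for the 16228 genes tested, with genes called higher in the interaction in red (144) and lower in blue (125); the dashed line marks equal change in both lines. The genes called higher lie above the line, the stress genes CHAC1, SLC7A11 and DDIT4 lie below it with a rise in both lines, and CEBPD is at -1.04 and 3.53.

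The number of genes called depended on single libraries and on base composition, and where a call below is said to be lost without several libraries, each was left out alone. Without the third library of CTRL cells at 8 h, 1196 genes were called, and without the first, 380. Without any 1 of the other 10 libraries, between 131 and 147 genes were called. The genes called higher had a median GC content of 44.3% and those called lower 59.4%, against 47.9% over all genes tested. With a GC offset fitted in each library, 439 genes were called (2.71%), of which 296 (67.4%) were higher and 143 lower, against 53.5% higher without it. Of the 144 genes called higher, 134 remained called in the same direction with the offset, as did 89 of the 125 called lower.

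Promoter sequences from RefSeq (GRCh38.p14, from 250 bases before to 50 after the annotated start) were matched by symbol for 203 of the 269 called genes and for 10490 of the 16228 tested. They were searched on both strands for TTGCGCAA, the palindrome that C/EBP dimers bind, for TTGCNNAA, which keeps its outer bases and includes the palindrome, and for TGATGCAAT, a composite of a C/EBP and an ATF half-site. TTGCNNAA was found in 18 of 109 promoters of genes called higher (16.5%), in 6 of 94 of genes called lower (6.38%), in 6.89% of the promoters of all genes tested and in 10.6% of all 27305 promoters. The median GC content of these promoters was 64.3% for genes called higher, 72.7% for genes called lower and 65.7% for all genes tested, and its part in the shares was not tested. TTGCGCAA was found in 0 of the 203 promoters and in 0.2% of the promoters of all genes tested. TGATGCAAT was found in 1 promoter of a gene called higher (0.917%), that of the nuclear receptor coactivator NCOA7 (log2 interaction 0.65, adjusted p = 0.00016), in 0 of a gene called lower and in 0.143% of those of all genes tested. A match describes the letters and not a bound site. Of the 68 called genes named below, 42 had a promoter entry, and 7 are reported here with a match to TTGCNNAA. Whether the promoters of CEBPD and TRIB1 hold a match is not reported, so the 7 are not a share of the 42. The match lay at or after the start in NCR3LG1, which was called higher, and in GADD45B and LAMB2, which were called lower. It lay upstream of the RefSeq start in the receptor OSMR, the annexin ANXA1, the chemokine CXCL2 and the urokinase receptor PLAUR, which were called higher and are shown for that position. In the GENCODE annotation OSMR begins at chr5:38845858 and PLAUR, on the minus strand, at chr19:43670547. The matches of OSMR and PLAUR lie inside the genes as annotated there. The 250 bases upstream of each start are shown 5′ to 3′ on the strand of the gene, with the match to TTGCNNAA or its reverse complement in capitals, for OSMR (chr5:38845762-38846011, plus strand), ANXA1 (chr9:73151615-73151864, plus strand), CXCL2 (chr4:74099196-74099445, minus strand) and PLAUR (chr19:43670170-43670419, minus strand).
OSMR: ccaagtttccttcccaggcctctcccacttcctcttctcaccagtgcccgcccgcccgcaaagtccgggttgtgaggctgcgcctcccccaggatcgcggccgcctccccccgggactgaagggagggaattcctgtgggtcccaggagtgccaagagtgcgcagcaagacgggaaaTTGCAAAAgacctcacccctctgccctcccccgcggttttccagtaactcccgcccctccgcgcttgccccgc
ANXA1: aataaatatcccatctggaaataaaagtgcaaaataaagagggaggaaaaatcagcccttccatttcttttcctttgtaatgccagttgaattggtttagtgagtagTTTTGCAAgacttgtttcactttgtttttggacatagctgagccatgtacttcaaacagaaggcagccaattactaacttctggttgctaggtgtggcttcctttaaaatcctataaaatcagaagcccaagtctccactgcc
CXCL2: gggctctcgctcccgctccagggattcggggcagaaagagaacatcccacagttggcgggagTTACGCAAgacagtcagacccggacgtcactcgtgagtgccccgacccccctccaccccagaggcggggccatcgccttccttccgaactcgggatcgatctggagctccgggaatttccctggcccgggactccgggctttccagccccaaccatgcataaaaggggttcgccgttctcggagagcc
PLAUR: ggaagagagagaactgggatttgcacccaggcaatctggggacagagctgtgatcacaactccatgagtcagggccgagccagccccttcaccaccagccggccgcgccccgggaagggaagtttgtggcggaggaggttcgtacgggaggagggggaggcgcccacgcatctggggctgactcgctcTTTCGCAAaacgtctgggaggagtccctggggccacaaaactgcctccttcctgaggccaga

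The cytokine receptors OSMR, LIFR and IL4R were higher in the interaction, on lists made after values were seen. The receptor of oncostatin M, OSMR, was measured at 163, 165 and 159.8 CPM in CTRL cells at 0 h and 114, 123 and 122 at 8 h, and 99.6, 103 and 101 in inducible cells at 0 h and 143, 149 and 148 at 8 h. All CTRL libraries at 8 h lay below those at 0 h, all inducible libraries at 8 h lay above those at 0 h, and none of the 4 groups overlapped. The OSMR interaction was 0.98 ± 0.060 (SE, adjusted p = 1.22e-07), with a log2 change of 0.53 in inducible cells (adjusted p = 1.48e-07) and of -0.44 in CTRL cells (adjusted p = 2.33e-06). LIFR, which pairs with the shared receptor chain gp130 for leukaemia inhibitory factor, also passed, with a log2 interaction of 0.87 ± 0.14 (SE, adjusted p = 0.00219). LIFR was measured at 104, 95.7 and 94.5 CPM in CTRL cells at 0 h and 72.8, 80.8 and 89.9 at 8 h, and 5.46, 4.68 and 5.42 in inducible cells at 0 h and 7.09, 8.21 and 8.26 at 8 h, so that it rose in the line in which it was scarce, and the CTRL libraries at 8 h lay below those at 0 h. The LIFR call was lost without inducible 0 h replicate 2 (adjusted p 0.0138). Of 12 tested receptors and ligands of the gp130 family, a list put together after values were seen, OSMR and LIFR were higher and 0 were lower. That is 16.7% higher, against 0.887% of all genes tested. IL6R (0.61, adjusted p = 0.051) and gp130 itself, IL6ST (0.36, adjusted p = 0.0984), did not pass the threshold. The interleukin-4 receptor IL4R, from a second list made after values were seen, was measured at 31.8, 32.5 and 29.3 CPM in CTRL cells at 0 h and 32.5, 32.7 and 26.6 at 8 h, and 23.7, 24 and 22.6 in inducible cells at 0 h and 37.9, 37.5 and 39.2 at 8 h. IL4R was lower in inducible cells at 0 h and higher in them at 8 h, and its log2 interaction was 0.73 ± 0.11 (SE, adjusted p = 0.000832).

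Of 16 tested acute-phase and cytokine genes, 2 were higher (12.5%, against 0.887% of all genes tested), 0 were lower, and the median interaction was 0.48. Both were CXC chemokines that attract neutrophils. CXCL8 was measured at 96.5, 88.5 and 94.3 CPM in CTRL cells at 0 h and 78.8, 98.7 and 116 at 8 h, and 221, 235 and 234 in inducible cells at 0 h and 448, 422 and 449 at 8 h, so that the inducible cells rose from a level above that of CTRL cells to a higher one. CTRL cells at 8 h overlapped their 0 h libraries, and the log2 interaction was 0.86 ± 0.13 (SE, adjusted p = 0.000898). CXCL2 had a log2 interaction of 1.06 ± 0.18 (SE, adjusted p = 0.00261), with libraries at 5.12, 5.17 and 6.49 CPM in CTRL cells at 0 h and 5.64, 7.87 and 6.0 at 8 h, and 8.01, 8.5 and 7.32 in inducible cells at 0 h and 17.9, 20.4 and 19.1 at 8 h. The inducible cells at 8 h lay above all other libraries in CXCL2. The CXCL2 call was lost without inducible 0 h replicate 3, or CTRL 0 h replicate 3 (adjusted p 0.0107 to 0.014). Another 20 members of the list, among them IL6, SAA1, HP and CRP, had too few counts to be tested. Complement C3 (2.00, adjusted p = 0.187) and LCN2 (1.65, adjusted p = 0.49) had large estimates from low counts that did not pass the threshold.

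Among factors of the immediate-early response and of the ERK pathway, which carries growth factor signals from receptors to the nucleus, members moved both ways. EGR1, an immediate-early zinc finger factor, was the 1 of 16 tested immediate-early genes that passed, with a log2 interaction of 0.83 ± 0.090 (SE, adjusted p = 9.02e-05). EGR1 was measured at 96.9, 103 and 102 CPM in CTRL cells at 0 h and 82.3, 89.4 and 89.6 at 8 h, and 28.6, 34.1 and 35.3 in inducible cells at 0 h and 49.2, 51.9 and 50.7 at 8 h, so that CTRL cells lay above inducible cells at both times, with a lower level at 8 h than at 0 h in CTRL cells and a higher one in inducible cells. DUSP6, a phosphatase that inactivates ERK, had a log2 interaction of 0.88 ± 0.10 (SE, adjusted p = 0.000122). DUSP6 was measured at 24.2, 25.4 and 23.7 CPM in CTRL cells at 0 h and 19, 20.7 and 19.9 at 8 h, and 17.3, 20.6 and 18.2 in inducible cells at 0 h and 27.7, 28.7 and 27.9 at 8 h. It lay below CTRL cells in inducible cells at 0 h and above them at 8 h. Of 18 tested ERK feedback genes, DUSP6 was higher (5.56%, against 0.887% of all genes tested) and 2 were lower (11.1%, against 0.77%). The 2 were the receptor EPHA2 at -0.44 ± 0.066 (SE, adjusted p = 0.00104) and the ERK pathway inhibitor SPRY4 at -0.28 ± 0.047 (SE, adjusted p = 0.00257). The SPRY4 call was lost without inducible 0 h replicate 1 or 2, inducible 8 h replicate 2, CTRL 0 h replicate 1, or CTRL 8 h replicate 2 (adjusted p 0.0109 to 0.0167). A list of EGFR family receptors and ligands also held the EGFR inhibitor ERRFI1. Of its 10 tested members, 2 were higher (20%, against 0.887% of all genes tested) and 0 lower. The 2 were the ligand epiregulin, EREG, at 0.80 ± 0.12 (SE, adjusted p = 0.000795), and the EGFR inhibitor ERRFI1 at 0.32 ± 0.044 (SE, adjusted p = 0.000543). EREG was measured at 387, 343 and 366 CPM in CTRL cells at 0 h and 294, 355 and 408 at 8 h, and 311, 338 and 322 in inducible cells at 0 h and 540.3, 567 and 526 at 8 h. CTRL cells at 8 h spread widely around their 0 h level of EREG, and all inducible libraries at 8 h lay above all others. TRIB1, a pseudokinase that targets C/EBPα for degradation, was measured at 10.9, 10.8 and 11.8 CPM in CTRL cells at 0 h and 10.6, 12.8 and 11.9 at 8 h, and 10.8, 12.2 and 12.3 in inducible cells at 0 h and 30.8, 29.3 and 30.1 at 8 h. Both CTRL groups and the inducible cells at 0 h overlapped in TRIB1, and the inducible cells at 8 h lay above them, with a log2 interaction of 1.28 ± 0.12 (SE, adjusted p = 1.55e-05).

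Among the genes called higher with the smallest p-values or the largest interactions were SLC2A3, UNC5B, NCR3LG1 and ANXA1. SLC2A3, the glucose transporter GLUT3, was measured at 151, 144 and 144 CPM in CTRL cells at 0 h and 122, 124 and 126 at 8 h, and 53.8, 53.9 and 57.9 in inducible cells at 0 h and 87.6, 90.8 and 86.5 at 8 h. SLC2A3 was highest in CTRL cells at 0 h and moved toward a common level from both sides, with a log2 interaction of 0.92 ± 0.062 (SE, adjusted p = 3.99e-07). UNC5B, a netrin receptor, was measured at 4.06, 3.81 and 4.77 CPM in CTRL cells at 0 h and 4.71, 5.01 and 4.48 at 8 h, and 18.2, 18 and 17.3 in inducible cells at 0 h and 54.7, 51.3 and 54.8 at 8 h. The UNC5B level rose in inducible cells and stayed within 3.81 to 5.01 CPM in CTRL cells, and its log2 interaction was 1.42 ± 0.13 (SE, adjusted p = 1.55e-05). NCR3LG1, a ligand of the natural killer cell receptor NKp30, was measured at 20.5, 20.5 and 21.8 CPM in CTRL cells at 0 h and 19.7, 21.5 and 18.1 at 8 h, and 9.28, 10.0 and 9.61 in inducible cells at 0 h and 21.2, 20.9 and 21.7 at 8 h. NCR3LG1 in inducible cells thereby reached the range of the CTRL cells, with a log2 interaction of 1.22 ± 0.11 (SE, adjusted p = 1.07e-05). ANXA1, a calcium-dependent phospholipid-binding protein, had a log2 interaction of 0.57 ± 0.048 (SE, adjusted p = 6.70e-06) with libraries at 1226, 1277 and 1249 CPM in CTRL cells at 0 h and 1148, 1118 and 1224 at 8 h, and 583, 571 and 578 in inducible cells at 0 h and 814, 776 and 805 at 8 h. ANXA1 remained lower in inducible cells at both times.

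SLFN5, a member of the interferon-regulated Schlafen family, was measured at 12.8, 12.2 and 11.2 CPM in CTRL cells at 0 h and 15.6, 16.6 and 18.3 at 8 h, and 3.77, 4.55 and 4.53 in inducible cells at 0 h and 13.3, 15.4 and 16.4 at 8 h, with a log2 interaction of 1.32 ± 0.15 (SE, adjusted p = 0.000129). It rose in both lines, and the lines overlapped at 8 h. LGALS3BP, a secreted galectin-binding glycoprotein, was measured at 18.6, 19.9 and 18.3 CPM in CTRL cells at 0 h and 10.3, 10.0 and 8.52 at 8 h, and 10.0, 9.78 and 9.16 in inducible cells at 0 h and 11.5, 12.7 and 12.2 at 8 h, with a log2 interaction of 1.30 ± 0.12 (SE, adjusted p = 1.94e-05). For LGALS3BP the larger part of the contrast was the fall in CTRL cells (-0.98, adjusted p = 8.82e-07), while its change in inducible cells was 0.33 (adjusted p = 0.0124). The cholesterol transporter ABCG1 (1.52), the RING finger protein LONRF3 (1.46), the polyamine transporter SLC18B1 (1.37) and the chondroitin sulfotransferase CHST11 (1.28) followed, with adjusted p of 0.00527, 0.00642, 0.00732 and 0.00491. Their calls did not hold in all fits that leave out 1 library. The ABCG1 call was lost in 9 of the 12 fits that leave out 1 library, the exceptions being those without CTRL 8 h replicate 1 or 3, or inducible 8 h replicate 2 (adjusted p 0.0118 to 0.0211). The LONRF3 call was lost in 9 of the 12 fits that leave out 1 library, the exceptions being those without CTRL 8 h replicate 1 or 3, or inducible 8 h replicate 3 (adjusted p 0.0117 to 0.0286). The SLC18B1 call was lost in 9 of the 12 fits that leave out 1 library, the exceptions being those without CTRL 8 h replicate 1 or 3, or inducible 8 h replicate 2 (adjusted p 0.0147 to 0.0295). The CHST11 call was lost in 7 of the 12 fits that leave out 1 library, the exceptions being those without CTRL 0 h replicate 1, CTRL 8 h replicate 1 or 3, or inducible 0 h replicate 1 or 2 (adjusted p 0.0111 to 0.0209).

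Of 9 tested adipogenic and lipid genes with known C/EBP binding, 2 were higher (22.2%, against 0.887% of all genes tested) and 0 lower, with a median of 0.18. PLIN2, which coats lipid droplets, was measured at 31.8, 32.2 and 29.7 CPM in CTRL cells at 0 h and 38.1, 39.3 and 41.1 at 8 h, and 37.6, 37.7 and 35.8 in inducible cells at 0 h and 71.4, 71.1 and 70.9 at 8 h. PLIN2 rose in both lines, more so in inducible cells, and its log2 interaction was 0.60 ± 0.073 (SE, adjusted p = 0.000182). CPT1A, which admits fatty acids to mitochondria for oxidation, had a log2 interaction of 0.50 ± 0.084 (SE, adjusted p = 0.00257), and its call was lost without inducible 0 h replicate 1 or 3, or CTRL 0 h replicate 2 or 3 (adjusted p 0.0103 to 0.0113). Within the C/EBP family, 5 members were tested. CEBPB was lower (-0.52 ± 0.10 SE, adjusted p = 0.00677), with a rise of 0.92 in CTRL cells and of 0.40 in inducible cells. The CEBPB call was lost with the GC offset (adjusted p = 0.0671) and in 9 of the 12 fits that leave out 1 library, the exceptions being those without CTRL 8 h replicate 1 or 3, or inducible 0 h replicate 1 (adjusted p 0.0108 to 0.0307). CEBPA (-0.096, adjusted p = 0.702), CEBPG (-0.17, adjusted p = 0.229) and DDIT3 (-0.59, adjusted p = 0.0565) did not pass.

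The integrated stress response, in which ATF4 switches on amino acid synthesis, amino acid transport and tRNA charging, rose in both lines, and some of its members were lower in the interaction. Of 32 tested members, 26 rose in inducible cells and 27 rose in CTRL cells at 8 h, and 0 fell in either line. Of all 16228 genes tested, 1108 rose and 1516 fell in inducible cells, and 355 rose and 452 fell in CTRL cells, at the same threshold. In the interaction, 5 were lower (15.6%, against 0.77% of all genes tested), 1 was higher, and the median was -0.16, with 9 of the 32 estimates above 0. CHAC1, a glutathione-degrading enzyme and target of ATF4, was measured at 2.34, 1.96 and 2.7 CPM in CTRL cells at 0 h and 21.8, 18.4 and 17.2 at 8 h, and 7.11, 7.59 and 6.71 in inducible cells at 0 h and 21.4, 20.8 and 19.8 at 8 h. The lines overlapped at 8 h and differed at 0 h, where CHAC1 was lower in CTRL cells, and the log2 interaction was -1.50 ± 0.17 (SE, adjusted p = 0.000129). SLC7A11, the cystine transporter xCT, was measured at 11.8, 11.2 and 11.4 CPM in CTRL cells at 0 h and 60.8, 81.9 and 83.2 at 8 h, and 52.4, 49.8 and 51.3 in inducible cells at 0 h and 148, 151 and 147 at 8 h. SLC7A11 lay above CTRL cells in the inducible cells at both times and rose in both lines, with a log2 interaction of -1.17 ± 0.13 (SE, adjusted p = 0.00011). DDIT4, an inhibitor of mTORC1, was measured at 28.5, 28.1 and 29.7 CPM in CTRL cells at 0 h and 119.8, 106 and 101 at 8 h, and 70.3, 68.8 and 73.6 in inducible cells at 0 h and 173, 176 and 186 at 8 h, with a log2 interaction of -0.59 ± 0.084 (SE, adjusted p = 0.00074). It rose in both lines and was higher in inducible cells at both times. ATF4 itself was measured at 109.6, 114 and 116 CPM in CTRL cells at 0 h and 277, 248 and 251 at 8 h, and 153, 160.2 and 160.3 in inducible cells at 0 h and 274, 269 and 279 at 8 h. The lines overlapped in ATF4 at 8 h and were apart at 0 h, and the log2 interaction was -0.39 ± 0.066 (SE, adjusted p = 0.00257). The ATF4 call was lost without inducible 0 h replicate 2 or 3, inducible 8 h replicate 1 or 2, or CTRL 0 h replicate 1 (adjusted p 0.0105 to 0.015). Asparagine synthetase, ASNS, had a log2 interaction of -0.38 ± 0.075 (SE, adjusted p = 0.00791), and its call was lost in 8 of the 12 fits that leave out 1 library, the exceptions being those without CTRL 0 h replicate 2, CTRL 8 h replicate 1 or 3, or inducible 0 h replicate 2 (adjusted p 0.0175 to 0.0347). The exception was the tryptophanyl-tRNA synthetase WARS1, which had a log2 interaction of 0.41 ± 0.048 (SE, adjusted p = 0.000129). With the GC offset, 9 of the 32 members were lower and 3 higher. A list of NRF2 target enzymes shared the transporter SLC7A11 with this list. It had 0 higher and 1 lower of 15 tested, the 1 being SLC7A11.

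Of 19 tested genes of the unfolded protein response, 1 was higher and 1 lower. The chaperone HSPA5 had a log2 interaction of 0.37 ± 0.056 (SE, adjusted p = 0.00119), and the membrane-bound transcription factor CREB3L1 one of -0.71 ± 0.10 (SE, adjusted p = 0.000832). Of 19 tested hypoxia and glycolysis genes, SLC2A3 was higher and the angiogenic growth factor VEGFA was lower. VEGFA rose in both lines, by 1.47 in CTRL cells and by 1.11 in inducible cells, with a log2 interaction of -0.36 ± 0.066 (SE, adjusted p = 0.00491). The VEGFA call was lost in 9 of the 12 fits that leave out 1 library, the exceptions being those without CTRL 0 h replicate 2, or CTRL 8 h replicate 1 or 3 (adjusted p 0.0124 to 0.022).

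The inhibitors of DNA binding ID2 and ID3, which hold basic helix-loop-helix factors away from DNA and are transcribed in response to BMP signals, were lower. ID3 was measured at 166, 160.0 and 175 CPM in CTRL cells at 0 h and 111, 102 and 95.1 at 8 h, and 192, 196 and 199 in inducible cells at 0 h and 76.8, 73.1 and 77.1 at 8 h. ID3 fell in both lines, from a higher level in inducible cells to a lower one, and its log2 interaction was -0.67 ± 0.075 (SE, adjusted p = 0.00011). ID2 was measured at 30.8, 24.7 and 26.1 CPM in CTRL cells at 0 h and 13.8, 16.3 and 18.2 at 8 h, and 37.7, 36.2 and 36 in inducible cells at 0 h and 12.9, 10.0 and 13.2 at 8 h, with a log2 interaction of -0.85 ± 0.16 (SE, adjusted p = 0.00482). It likewise fell in both lines without overlap between 0 h and 8 h. The ID2 call was lost in 9 of the 12 fits that leave out 1 library, the exceptions being those without CTRL 0 h replicate 1, or CTRL 8 h replicate 1 or 3 (adjusted p 0.01001 to 0.018). Of 10 tested SMAD and ID feedback genes, ID2 and ID3 were lower (20%, against 0.77% of all genes tested) and 0 were higher, with a median of -0.27. Other factors that were lower were the Hippo-YAP target CCN1 (-0.30 ± 0.054 SE, adjusted p = 0.00446), 1 of 13 tested genes of that list, and the clock output factor TEF (-0.73 ± 0.12 SE, adjusted p = 0.00285), 1 of 14 tested clock genes. The stress gene GADD45B (-0.53 ± 0.084 SE, adjusted p = 0.00158) was the 1 of 17 tested CDK inhibitors and p53 targets that passed, and the shear-responsive factor KLF2 (-0.36 ± 0.072 SE, adjusted p = 0.00909) the 1 of 11 tested Krüppel-like factors. TEF rose in CTRL cells by 0.74 (adjusted p = 2.01e-05) and changed by 0.0076 in inducible cells (adjusted p = 0.966). The CCN1 call was lost in 9 of the 12 fits that leave out 1 library, the exceptions being those without CTRL 0 h replicate 3, or CTRL 8 h replicate 1 or 3 (adjusted p 0.0119 to 0.0187). The TEF call was lost in 7 of the 12 fits that leave out 1 library, the exceptions being those without CTRL 0 h replicate 1, CTRL 8 h replicate 1, 2 or 3, or inducible 0 h replicate 3 (adjusted p 0.011 to 0.0138). The GADD45B call was lost without inducible 8 h replicate 2 (adjusted p 0.0103). The KLF2 call was lost with the GC offset (adjusted p = 0.138) and in 10 of the 12 fits that leave out 1 library, the exceptions being those without CTRL 8 h replicate 1 or 3 (adjusted p 0.0125 to 0.0362).

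The study selected 7 migration genes on samples of the same series, so their direction is no independent evidence here. At 8 h, 2 of the 7 were lower (28.6%, against 0.77% of all genes tested) and 0 higher in the interaction. Gelsolin, GSN, which severs and caps actin filaments, was measured at 153, 152 and 146 CPM in CTRL cells at 0 h and 117, 108 and 97 at 8 h, and 51.2, 49.1 and 50.1 in inducible cells at 0 h and 20.1, 19.5 and 18.8 at 8 h. GSN fell in both lines without overlap between 0 h and 8 h, and more in inducible cells (-1.36) than in CTRL cells (-0.49), which gave a log2 interaction of -0.88 ± 0.087 (SE, adjusted p = 3.13e-05). MYPN, a sarcomeric protein that binds actinin, was measured at 54, 57 and 57.7 CPM in CTRL cells at 0 h and 56.8, 51.5 and 54.3 at 8 h, and 104, 106 and 117 in inducible cells at 0 h and 74.7, 73.5 and 74.7 at 8 h, with a log2 interaction of -0.50 ± 0.076 (SE, adjusted p = 0.00109). MYPN fell in inducible cells, stayed above CTRL cells there, and overlapped between times in CTRL cells. NET1 (-0.29 ± 0.062 SE, adjusted p = 0.0131) and the receptor kinase AXL (-0.25 ± 0.062 SE, adjusted p = 0.0292) had estimates below 0 that did not pass 0.01. NET1 passed with the GC offset (-0.37, adjusted p = 1.38e-05), with which 3 of the 7 genes were lower, and in the fit of all 24 libraries (adjusted p = 0.00383). EGFR (-0.019 ± 0.082 SE, adjusted p = 0.918), ETS1 (-0.070 ± 0.062 SE, adjusted p = 0.535) and the integrin ITGB4 (0.015 ± 0.073 SE, adjusted p = 0.929) had estimates close to 0. ITGB4 illustrates what the contrast removes: it changed by -0.48 in inducible cells (adjusted p = 6.94e-06) and by -0.50 in CTRL cells (adjusted p = 3.71e-06).

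Besides GSN, genes of the actin cytoskeleton that passed were the myosin light chain MYL12A (0.36 ± 0.062 SE, adjusted p = 0.00315) and the actin cross-linker filamin A, FLNA (-0.27 ± 0.054 SE, adjusted p = 0.00824). The MYL12A call was lost in 7 of the 12 fits that leave out 1 library, the exceptions being those without CTRL 0 h replicate 2, CTRL 8 h replicate 1 or 3, or inducible 8 h replicate 2 or 3 (adjusted p 0.0102 to 0.015). The FLNA call was lost with the GC offset (adjusted p = 0.134) and in 10 of the 12 fits that leave out 1 library, the exceptions being those without CTRL 8 h replicate 1 or 3 (adjusted p 0.0162 to 0.0461). Of 17 tested integrins and laminins, the laminin chain LAMB2 was lower (-0.54 ± 0.090 SE, adjusted p = 0.00231), and this call was lost without inducible 0 h replicate 2, inducible 8 h replicate 2 or 3, or CTRL 8 h replicate 2 (adjusted p 0.0103 to 0.0122). The integrin chain ITGA10, described below, was not in that list. A list of matrix proteases and inhibitors also held the urokinase receptor PLAUR. Of its 13 tested members, 2 were higher (15.4%, against 0.887% of all genes tested). The 2 were the collagenase MMP1 (0.67 ± 0.12 SE, adjusted p = 0.00447) and the urokinase receptor PLAUR (0.40 ± 0.082 SE, adjusted p = 0.00933). MMP1 differed between the lines by far more than it moved, with 1227, 1213 and 1209 CPM in CTRL cells at 0 h and 1369.5, 1384 and 1437 at 8 h, and 4.67, 5.46 and 7.15 in inducible cells at 0 h and 9.96, 9.97 and 11.8 at 8 h. The MMP1 call was lost in 8 of the 12 fits that leave out 1 library, the exceptions being those without CTRL 8 h replicate 1 or 3, inducible 0 h replicate 3, or inducible 8 h replicate 2 (adjusted p 0.0119 to 0.026). The PLAUR call was lost in 10 of the 12 fits that leave out 1 library, the exceptions being those without CTRL 8 h replicate 1 or 3 (adjusted p 0.0116 to 0.0341).

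The genes with the smallest p-values among those called lower encode an RNA-binding protein, a chromatin remodeller and a microtubule factor beside GSN and ID3. LARP6, which binds collagen mRNAs, was measured at 45.4, 46.4 and 45.8 CPM in CTRL cells at 0 h and 46, 45.7 and 46.2 at 8 h, and 89.5, 86.9 and 86.2 in inducible cells at 0 h and 57, 55.3 and 54.3 at 8 h. LARP6 lay within 45.4 to 46.4 CPM in all CTRL libraries and fell in inducible cells without reaching that level, with a log2 interaction of -0.66 ± 0.060 (SE, adjusted p = 1.55e-05). The chromatin remodeller CHD5 was measured at 109.6, 109.9 and 112 CPM in CTRL cells at 0 h and 146, 129.9 and 124 at 8 h, and 41, 44.1 and 43.5 in inducible cells at 0 h and 28.8, 29 and 28.4 at 8 h. CHD5 rose in CTRL cells and fell in inducible cells, with no overlap in either line, and its log2 interaction was -0.85 ± 0.081 (SE, adjusted p = 2.08e-05). MTCL1, which crosslinks microtubules, was measured at 85.9, 87.1 and 89 CPM in CTRL cells at 0 h and 79.7, 77.9 and 76.3 at 8 h, and 157, 164 and 162 in inducible cells at 0 h and 98.2, 98.1 and 97.5 at 8 h, with a log2 interaction of -0.55 ± 0.057 (SE, adjusted p = 4.54e-05). Its 8 h libraries lay below the 0 h libraries in both lines.

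Among the genes with the largest lower interactions, PCAT14, a long non-coding RNA, was measured at 1.28, 1.9 and 0.882 CPM in CTRL cells at 0 h and 0.785, 1.25 and 1.35 at 8 h, and 7.85, 6.14 and 5.92 in inducible cells at 0 h and 1.25, 1.14 and 1.4 at 8 h, with a log2 interaction of -2.14 ± 0.38 (SE, adjusted p = 0.00381). It fell in inducible cells to the range of CTRL cells. The PCAT14 call was lost in 7 of the 12 fits that leave out 1 library, the exceptions being those without CTRL 0 h replicate 2, CTRL 8 h replicate 1 or 3, or inducible 0 h replicate 2 or 3 (adjusted p 0.0102 to 0.0172). The pseudogene ZDHHC8BP was measured at 20.6, 22.2 and 20.3 CPM in CTRL cells at 0 h and 15.9, 16.1 and 12.7 at 8 h, and 16.6, 14.6 and 15.6 in inducible cells at 0 h and 4.22, 4.49 and 5.22 at 8 h, with a log2 interaction of -1.27 ± 0.15 (SE, adjusted p = 0.000156), and all its inducible libraries at 8 h lay below all others. It overlaps another annotated gene on its strand and resembles ZDHHC8, so its reads may be split. ITGA10, a collagen-binding integrin chain, had a log2 interaction of -0.93 ± 0.13 (SE, adjusted p = 0.000469), and the zinc finger factor CASZ1 one of -0.90 ± 0.11 (SE, adjusted p = 0.000151). The neurotrophin receptor NGFR (-1.02 ± 0.18 SE, adjusted p = 0.0031), UAP1L1 (-0.93 ± 0.16 SE, adjusted p = 0.00297) and CEP295NL (-0.89 ± 0.16 SE, adjusted p = 0.00328) were the others of the largest lower interactions. The NGFR call was lost without inducible 0 h replicate 2 or 3, or inducible 8 h replicate 1 or 2 (adjusted p 0.0127 to 0.0176). The UAP1L1 call was lost without inducible 0 h replicate 3, inducible 8 h replicate 2 or 3, CTRL 0 h replicate 1, or CTRL 8 h replicate 2 (adjusted p 0.0105 to 0.0135). The CEP295NL call was lost without inducible 0 h replicate 2, inducible 8 h replicate 1, CTRL 0 h replicate 1 or 3, or CTRL 8 h replicate 2 (adjusted p 0.0107 to 0.0145).

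BTN3A2, a butyrophilin that takes part in the recognition of cells by γδ T cells, was measured at 1.67, 1.49 and 1.71 CPM in CTRL cells at 0 h and 2.7, 2.62 and 2.41 at 8 h, and 13.5, 15.1 and 14 in inducible cells at 0 h and 9.02, 11 and 10.2 at 8 h. The 8 h libraries lay below the 0 h libraries in inducible cells and above them in CTRL cells, and BTN3A2 was higher in inducible cells at both times, with a log2 interaction of -1.17 ± 0.19 (SE, adjusted p = 0.00183). Of 7 tested butyrophilins, a family looked up after the values were seen, 3 were lower (42.9%, against 0.77% of all genes tested) and 0 higher, with a median of -0.67. The other two were BTN2A2 (-0.85 ± 0.14 SE, adjusted p = 0.00173) and the pseudogene BTN2A3P (-0.67 ± 0.12 SE, adjusted p = 0.00349). The BTN2A3P call was lost in 8 of the 12 fits that leave out 1 library, the exceptions being those without CTRL 0 h replicate 2, CTRL 8 h replicate 1 or 3, or inducible 0 h replicate 1 (adjusted p 0.0101 to 0.0144). These genes are close relatives and neighbours, so that reads shared between copies may have been split in the counting, and they are not independent.

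The epithelial adhesion molecule E-cadherin, CDH1, had the largest fitted interaction among called genes with a mean of at least 1 CPM, on few counts. The libraries held 19, 25 and 11 counts in CTRL cells at 0 h, 3, 18 and 16 in CTRL cells at 8 h, 0, 3 and 4 in inducible cells at 0 h, and 84, 70 and 79 in inducible cells at 8 h. CDH1 was near the limit of detection in inducible cells at 0 h and above every other library in the same cells at 8 h. Over the 3 libraries of each group, 233 counts against 7 gave a ratio of 38.1 (95% exact interval 18.2 to 95.7, counting error only), and in CTRL cells 37 against 55 gave 0.661 (0.424 to 1.02). The adjusted p of the interaction was 0.00073, and its fitted log2 value of 5.79 depends on the prior count and gives no bound. CDH1 was the 1 of 14 tested members of an EMT panel that the study looked at that passed, and the panel's median was 0.049. VIM (0.11 ± 0.024 SE, adjusted p = 0.0196), ZEB1 (0.042 ± 0.081 SE, adjusted p = 0.801), SNAI1 (-0.010 ± 0.20 SE, adjusted p = 0.985), SNAI2 (-0.30 ± 0.75 SE, adjusted p = 0.853), CTNNB1 (0.079 ± 0.052 SE, adjusted p = 0.392), GSK3B (0.17 ± 0.090 SE, adjusted p = 0.267) and S100A4 (-0.046 ± 0.065 SE, adjusted p = 0.722) did not pass, nor did ACTA2, COL4A1, LAMB1, MUC1, SUMO2 and SDC1, which was entered for a symbol that the study prints as SCD1, while MMP2, FN1 and CDH2 did not pass the filter on low counts. S100A4 fell by nearly the same amount in both lines (-0.78 and -0.73). VIM passed under 4 of 21 alternative settings. Among them were the GC offset (0.099, adjusted p = 0.00657) and the fit of all 24 libraries (adjusted p = 0.00407). The CDH1 call was lost in an analysis of variance on log2(CPM + 1) (adjusted p = 0.0173).

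Of 17 tested keratins and epithelial junction genes, 1 was higher and 1 lower. Claudin-1, CLDN1, a protein of tight junctions, was measured at 7.23, 6.78 and 7.37 CPM in CTRL cells at 0 h and 6.23, 7.69 and 6.78 at 8 h, and 93.7, 105 and 96.4 in inducible cells at 0 h and 177, 178 and 174 at 8 h. CLDN1 was low in CTRL cells and rose from a higher level in inducible cells, with a log2 interaction of 0.89 ± 0.11 (SE, adjusted p = 0.00016). The keratin KRT80 was measured at 107, 108 and 107 CPM in CTRL cells at 0 h and 108, 99.9 and 99.4 at 8 h, and 162, 163 and 165 in inducible cells at 0 h and 108, 108 and 118 at 8 h. KRT80 fell in inducible cells, where 2 of the 3 libraries at 8 h lay within the range of CTRL cells and the third above it, with a log2 interaction of -0.49 ± 0.065 (SE, adjusted p = 0.000422).

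The mRNAs encoded by the mitochondrial genome, subunits of the respiratory chain and ATP synthase, were the list with the largest share called. Of 13 tested, 10 were higher (76.9%, against 0.887% of all genes tested) and 0 lower, with a median of 0.28 and a range from 0.12 to 0.54. Together they took 3.29 to 3.40% of the counts in CTRL cells at 0 h and 2.61 to 2.70% at 8 h. In inducible cells they took 3.04 to 3.19% at 0 h and 2.87 to 3.16% at 8 h. The share thus fell without overlap in CTRL cells, while the inducible groups overlapped. MT-ND2, a subunit of complex I, was measured at 3709.9, 3777 and 3699 CPM in CTRL cells at 0 h and 3035, 2996 and 3234 at 8 h, and 3444, 3415 and 3263 in inducible cells at 0 h and 3364, 3518 and 3278 at 8 h. The MT-ND2 interaction was 0.28 ± 0.043 (SE, adjusted p = 0.00126), from a change of -0.27 in CTRL cells (adjusted p = 1.50e-05) and of 0.0054 in inducible cells (adjusted p = 0.92). Other members also fell in inducible cells, such as MT-CO3 by -0.20 (adjusted p = 0.00138). Of the 13, 13 fell in CTRL cells and 4 in inducible cells at an FDR of 0.01, and 0 rose in either line. Of all 16228 genes tested, 452 fell in CTRL cells and 1516 in inducible cells. MT-ND4 had a log2 interaction of 0.34 ± 0.053 (SE, adjusted p = 0.00158). The transcripts are cut from common precursors, and MT-ND4, MT-ND4L, MT-ATP6 and MT-CO3 each overlap a neighbour on the same strand, so they are not independent. The MT-ND4L call was lost in 9 of the 12 fits that leave out 1 library, the exceptions being those without CTRL 8 h replicate 1, 2 or 3 (adjusted p 0.0139 to 0.0324). The MT-ND1 call was lost without inducible 0 h replicate 1 or 3, CTRL 0 h replicate 2 or 3, or CTRL 8 h replicate 2 (adjusted p 0.0111 to 0.0167). The MT-CO3 call was lost in 8 of the 12 fits that leave out 1 library, the exceptions being those without CTRL 0 h replicate 3, CTRL 8 h replicate 1 or 3, or inducible 8 h replicate 1 (adjusted p 0.0104 to 0.0232). The MT-ATP6 call was lost in 8 of the 12 fits that leave out 1 library, the exceptions being those without CTRL 8 h replicate 1 or 3, or inducible 8 h replicate 2 or 3 (adjusted p 0.0111 to 0.0213). In the fit of all 24 libraries, MT-ND4L (adjusted p = 0.0228), MT-ND1 (0.0241) and MT-ATP6 (0.0237) did not pass at 8 h. In that fit MT-ND2 had log2 interactions of 0.12 at 24 h (adjusted p = 0.341) and 0.086 at 48 h (adjusted p = 0.455), and 0 of the 6 mRNAs named here passed at either time. The share of a library taken by these mRNAs also enters the normalisation of all other genes, and its part in other results was not tested.

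Of the interferon-stimulated genes reported here, IRF1, a transcription factor induced by interferons, had a log2 interaction of 0.70 ± 0.13 (SE, adjusted p = 0.00582) from a fall in CTRL cells (-0.94, adjusted p = 3.42e-06) and a smaller estimate in inducible cells (-0.24, adjusted p = 0.0742). The IRF1 call was lost in 8 of the 12 fits that leave out 1 library, the exceptions being those without CTRL 8 h replicate 1 or 3, inducible 0 h replicate 3, or inducible 8 h replicate 2 (adjusted p 0.0126 to 0.0268). Classical targets such as ISG15 (-0.71, adjusted p = 0.351), IFIT1 (-0.14, adjusted p = 0.424) and MX1 (0.66, adjusted p = 0.656) did not pass.

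**Figure D3:**
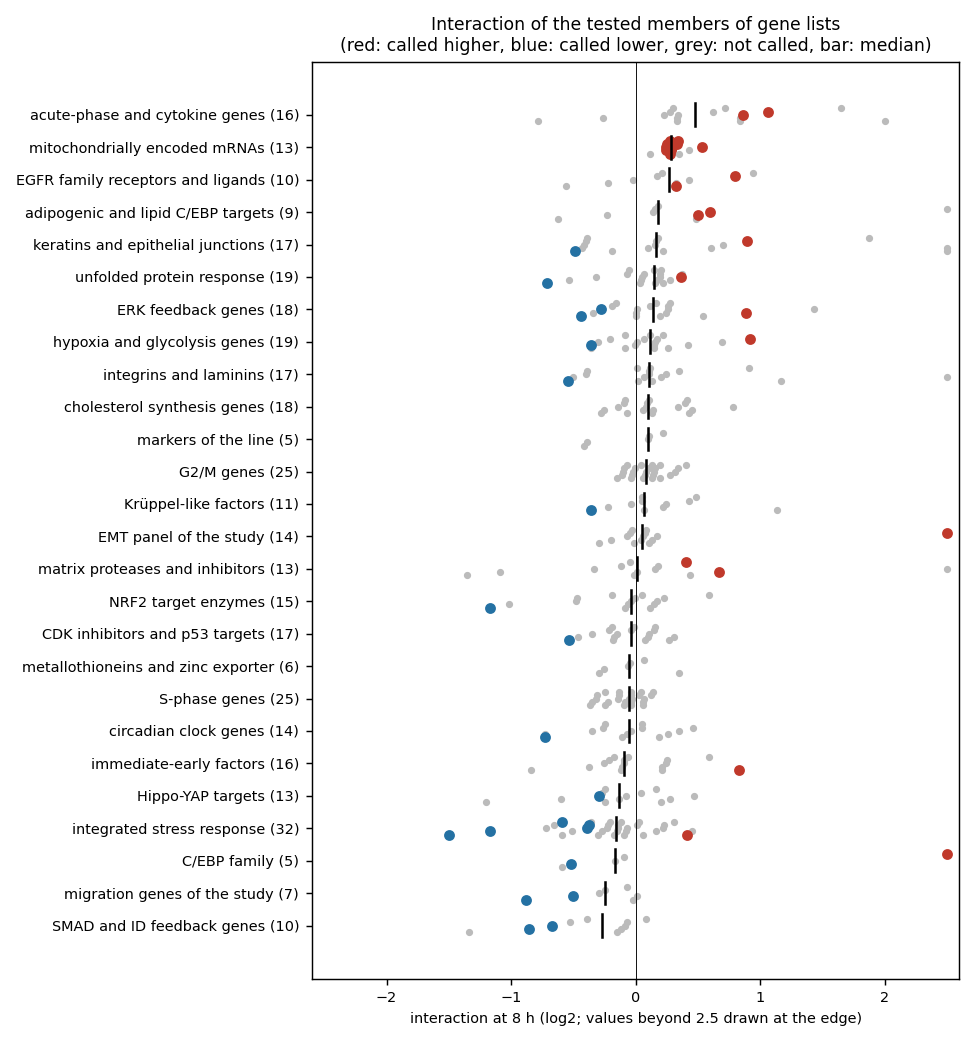
Log2 interaction at 8 h (x axis) of the tested members of the gene lists shown (y axis, number tested in brackets), with members called higher in red, lower in blue and not called in grey, and a bar at the median of the list. The mitochondrially encoded mRNAs sit together above 0 with a median of 0.28, the called members of the integrated stress response sit mostly below 0, and most lists are centred near 0.

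No member was called among 25 tested S-phase genes (median -0.054), 25 G2/M genes (median 0.083), 18 cholesterol synthesis genes (median 0.10), 6 metallothioneins and zinc exporters (median -0.053), 5 markers of the line and 4 tested markers of other cells. At an unadjusted p under 0.05, edgeR's quasi-likelihood test had 10 of the S-phase genes, 10 of the G2/M genes, 8 of the cholesterol synthesis genes, 1 of the metallothioneins (MT1X), 3 of the markers of the line (KRT18, KRT19 and VIM) and 1 of the markers of other cells (COL1A2). The share of all genes tested under that unadjusted p is not given here, so these counts have no background and are not read as a result about the lists. At an FDR of 0.01, DESeq2 called 3, 0, 1, 0, 0 and 1 of them in the same order, the S-phase genes being CDT1, FEN1 and UHRF1, the cholesterol synthesis gene HMGCS1 and the marker of other cells COL1A2. With the GC offset, KRT8, KRT18 and VIM of the markers of the line were called higher, as was 1 of the cholesterol synthesis genes. The S-phase gene UHRF1 and COL1A2 were called lower with it.

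In 11 genes both lines passed the threshold in opposite directions. Besides CEBPD, OSMR, SLC2A3, ERRFI1 and CHD5, these were JAG1, TM4SF1, RAB27A, ZNF217, ERMP1 and PDE4D. In 10 of the 11 the inducible cells rose and the CTRL cells fell, and CHD5 moved the other way. JAG1, a Notch ligand, was measured at 74.6, 71.7 and 72.3 CPM in CTRL cells at 0 h and 63.3, 63.1 and 60.3 at 8 h, and 382, 385 and 378 in inducible cells at 0 h and 453, 449 and 461 at 8 h, with a log2 interaction of 0.48 ± 0.053 (SE, adjusted p = 9.93e-05). The membrane protein TM4SF1 had a log2 interaction of 0.71 ± 0.078 (SE, adjusted p = 0.000108), the vesicle-trafficking GTPase RAB27A one of 1.26 ± 0.16 (SE, adjusted p = 0.000284), and the zinc finger factor ZNF217 one of 0.45 ± 0.059 (SE, adjusted p = 0.000367). ERMP1, a metallopeptidase of the endoplasmic reticulum, had one of 0.57 ± 0.076 (SE, adjusted p = 0.000384), and the cyclic AMP phosphodiesterase PDE4D one of 0.93 ± 0.14 (SE, adjusted p = 0.00125).

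For some of the named genes, the same interaction at 24 h and 48 h is given from a fit of all 24 libraries. The 3 times share the 0 h libraries, so the values stand side by side and their likeness is not a result. SLC2A3 had log2 interactions of 0.93, 2.08 and 2.14 at 8, 24 and 48 h. OSMR had 0.98, 0.90 and 0.66, and TRIB1 1.29, 1.10 and 0.98, all past the threshold. LGALS3BP had 1.31 at 8 h, and its values of 0.44 at 24 h (adjusted p = 0.0855) and 0.21 at 48 h (adjusted p = 0.407) did not pass. ID3 was at -0.67 at 8 h and at 0.42 at 24 h (adjusted p = 0.000256) and 0.80 at 48 h (adjusted p = 9.51e-09), each past the threshold with the sign changed after 8 h. ID2 went from -0.85 to 0.032 (adjusted p = 0.954) and 1.00 (adjusted p = 1.63e-05). CPT1A had 0.50, -0.31 (adjusted p = 0.011) and -0.75 (adjusted p = 1.80e-07). ATF4 had -0.38, -0.10 (adjusted p = 0.443) and -0.11 (adjusted p = 0.295), whereas SLC7A11 was at -0.83 and -1.06 after -1.16. Of the migration genes, EGFR had -0.012, -1.03 (adjusted p = 2.16e-08) and -0.81 (adjusted p = 7.65e-07). AXL had -0.24, which passed the threshold in this fit of more libraries (adjusted p = 0.00686), -0.85 (adjusted p = 3.86e-11) and -0.93 (adjusted p = 6.87e-12), and ITGB4 0.022, -0.95 (adjusted p = 9.21e-08) and -0.94 (adjusted p = 5.24e-08). GSN had -0.87, -0.77 and -1.01, past the threshold each time.

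**Figure D4:**
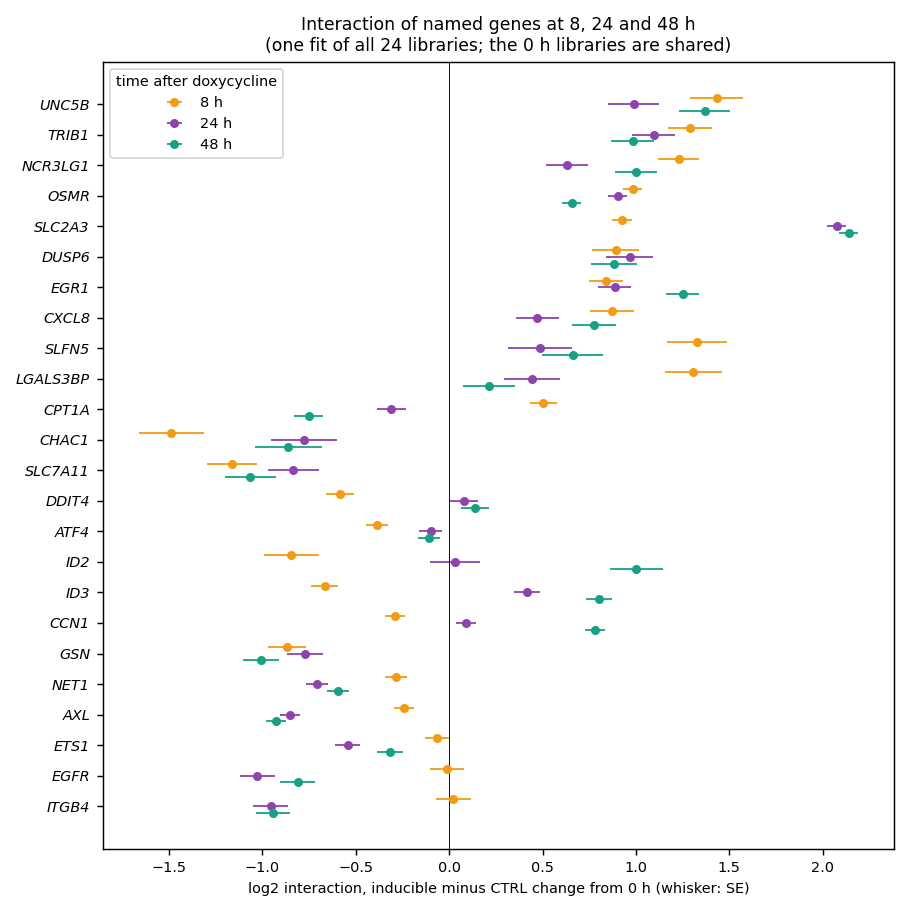
Log2 interaction (x axis, whiskers the SE) of 24 named genes (y axis) at 8 h (orange), 24 h (purple) and 48 h (green), from 1 fit of all 24 libraries. EGFR, ITGB4 and ETS1 are near 0 at 8 h and below 0 later, and ID2 and ID3 are below 0 at 8 h and above 0 at 48 h.

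Base composition moved with the contrast across all genes. With genes split into 5 bins of equal size by GC content, the median interaction was 0.16 in the lowest bin and -0.19 in the highest. The lowest bin held 35 of the genes called higher and 1 of those called lower, and the highest held 6 and 73. The difference in median log2 level between the highest and the lowest bin, taken against each gene's mean over 12 libraries, was 0.070, 0.088 and 0.10 in inducible cells at 0 h and -0.26, -0.29 and -0.27 at 8 h. In CTRL cells it was 0.033, 0.14 and 0.14 at 0 h and 0.36, 0.065 and -0.17 at 8 h. The inducible cells at 8 h thus stood together, and the 3 CTRL libraries at 8 h spread from the highest value of all to one below 0. With the offset, the medians of the bins lay between 0.0018 and 0.012. The offset was fitted to these same genes to remove the trend, so medians near 0 are set by its construction. Among the 68 named genes that were called, 65 remained called with the offset, the exceptions being CEBPB, KLF2 and FLNA. What part of the composition trend came from the preparation of the libraries was not tested.

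**Figure D5:**
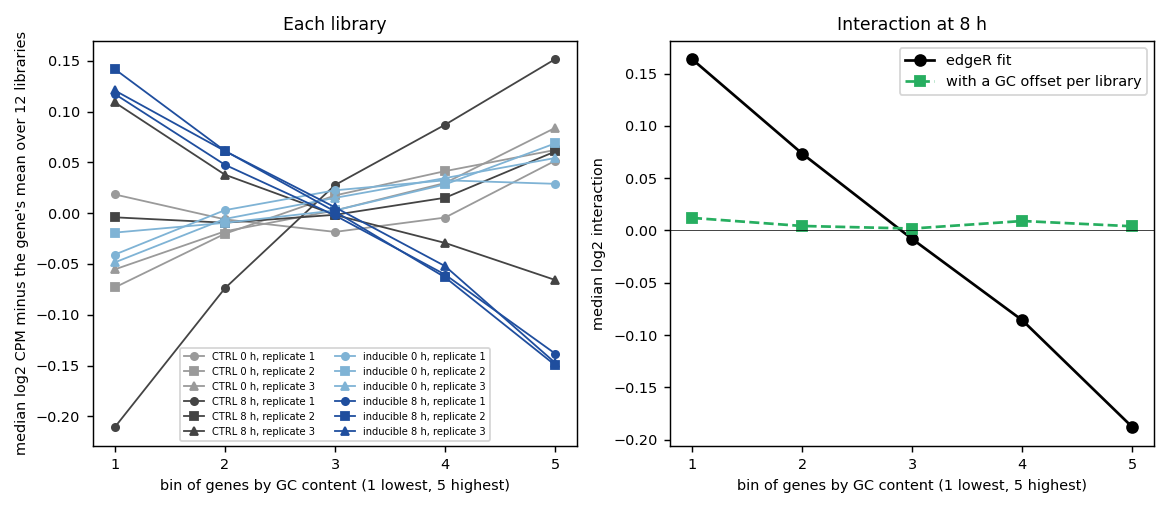
Left, median log2 CPM of the genes in each of 5 bins by GC content, relative to each gene's mean over the 12 libraries, with 1 line per library. Right, median log2 interaction at 8 h in each bin, in the edgeR fit (black) and with a GC offset per library (green). The 3 libraries of inducible cells at 8 h fall with GC content, the CTRL libraries at 8 h spread in both directions, and the interaction runs from 0.16 to -0.19 without the offset.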

How the data were processed

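RNA was measured in MIA PaCa-2 cells by total RNA sequencing after ribosomal RNA removal (KAPA RiboErase, HiSeq4000). The authors trimmed the reads, aligned them with HISAT2 to GRCh38 and counted them per gene with HTSeq and Ensembl annotation, and deposited these counts without normalisation. The submitters' processing notes list Trimmomatic 0.36 and HISAT2 2.3.4.3, for which the study's methods give other versions, and the strand setting of the counting is not given in the sources used here, so reads of overlapping genes may be shared. Symbols, GC content and overlaps came from GENCODE 44, which matched 56558 of 60675 identifiers.

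From the deposited counts, edgeR 4.0.16 (R 4.3.3) was run on 12 libraries with TMM scaling, its default filter on low counts, 1 mean per group and the two-sided quasi-likelihood test. Genes passed at a Benjamini-Hochberg adjusted p below 0.01, and these are the adjusted p-values in the text. CPM values are relative to TMM-scaled library sizes, and SE is the log2 value divided by the square root of F. On simulated counts for 16005 genes with 200 changed, 161 were called with 2 false calls, and 58% were recovered at 1.5-fold, 74% at 2-fold and 96% at 4-fold. The changed genes were drawn from those with a mean above 1 CPM. Counts were drawn independently, without the differences in GC trend between libraries of a group, so the simulation does not show how many calls in the real data are false. Same-group libraries differed beyond sampling noise, with a chi-square per gene of 1.74 to 14.9.

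The members and lists were chosen with earlier results of these data known. Named were CEBPD, the 10 called genes with the largest interaction each way at a mean of at least 1 CPM, the 5 with the smallest p each way, called list members (up to 6 per list) and all members of 2 lists taken from the study. Other genes were named after their values were seen. Alternatives were DESeq2 1.42.0, upper-quartile scaling, 2 other filters, all 24 libraries, a replicate block, an analysis of variance on log2(CPM + 1), other thresholds and leaving out each library. A loess offset on GC content (span 0.5), alone and with the block, was added after the data had been seen. Some genes and lists are not reported here.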

Additional observations from a re-analysis of the deposited data

Results flagged for a closer look

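The results here were singled out because the lines differed in their change at 8 h: by the test of the interaction for the 269 genes called as a whole, and, for 11 genes, because each line also passed the threshold in the opposite direction. The log2 interactions of those 11 were 4.56 for CEBPD, 0.98 for OSMR, 0.92 for SLC2A3, -0.85 for CHD5, 0.48 for JAG1, 0.71 for TM4SF1, 1.26 for RAB27A, 0.45 for ZNF217, 0.57 for ERMP1, 0.32 for ERRFI1 and 0.93 for PDE4D. With the GC offset the same 11 genes had values of 4.81, 0.94, 0.90, -0.67, 0.51, 0.57, 1.09, 0.39, 0.53, 0.27 and 0.79 in that order.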

How the results depend on the processing

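The interaction, 269 genes called, moved with the setting: 423 with DESeq2, 936 of 34595 without a filter on low counts, 441 with all 24 libraries in the fit, 82 in the analysis of variance, 439 with the GC offset, 833 at an FDR of 0.05 and 28 with an absolute log2 interaction of at least 1. Leaving out 1 library gave 131 to 1196 genes (1196 without CTRL 8 h replicate 3). Upper-quartile scaling (284), the stricter filter (298) and the GC offset with the replicate block (368) stayed within 1.5 times. Replicate numbers were shared between groups as names: over 18 pairs of same-numbered libraries the mean correlation of deviations was -0.0036 and 0 exceeded 0.1. The replicate block gave 162 genes, 161 of them among the 269, and 13 named genes lost their call (ABCG1, LONRF3, SLC18B1, CEBPB, CCN1, KLF2, FLNA, VEGFA, ASNS, PLAUR, MT-ND4L, MT-CO3 and MT-ATP6). The change in inducible cells, 2624 genes, became 1719 in the analysis of variance, 4552 at an FDR of 0.05 and 1607 to 4015 without 1 library (4015 without CTRL 8 h replicate 1, the cause was not tested). The change in CTRL cells, 807 genes, became 1311 without the filter, 1229 with all 24 libraries, 484 in the analysis of variance, 1985 with the GC offset, 1836 with the offset and block, 1791 at an FDR of 0.05 and 450 to 1463 without 1 library. CEBPD stayed between 4.38 and 4.73 without 1 library and was called under all 21 alternatives. Of the 68 named called genes, 25 kept their call under all 21 alternatives, 38 in each fit that left out 1 library, 67 in DESeq2, 65 with the GC offset and 28 in the analysis of variance, and 0 of the named genes turned a call around. With 3 libraries per group, genes of low level such as CDH1 rest on few counts. Whether the libraries are independent cultures, and the cause of the spread of CTRL libraries at 8 h, was not tested.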

Other observations

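Families looked up after the values were seen, and so without a test of the family, held further called genes. Of 9 tested genes of the HOXB cluster, which encodes homeodomain factors, HOXB7 (1.14 ± 0.21 SE, adjusted p = 0.00523) and HOXB9 (0.99 ± 0.14 SE, adjusted p = 0.000832) were higher in the interaction. That is 22.2% higher, against 0.887% of all genes tested. HOXB9 was measured at 214, 225 and 218 CPM in CTRL cells at 0 h and 205, 195 and 189 at 8 h, and 1.96, 2.77 and 2.07 in inducible cells at 0 h and 3.86, 3.87 and 4.75 at 8 h, so that the change in inducible cells took place far below the level of CTRL cells. HOXB7 was measured at 25.7, 21.1 and 21 CPM in CTRL cells at 0 h and 20.3, 20.6 and 23.5 at 8 h, and 1.59, 1.64 and 2.07 in inducible cells at 0 h and 4.28, 3.31 and 3.35 at 8 h, and its call was lost without inducible 0 h replicate 1 or 2, inducible 8 h replicate 1 or 3, or CTRL 8 h replicate 2 (adjusted p 0.011 to 0.028).

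Of 20 tested S100 proteins and annexins, which bind calcium, ANXA1, S100A11 (0.34 ± 0.044 SE, adjusted p = 0.000345) and ANXA7 (0.31 ± 0.060 SE, adjusted p = 0.00663) were higher and 0 lower. That is 15% higher, against 0.887% of all genes tested. The ANXA7 call was lost with the GC offset (adjusted p = 0.0333) and in 10 of the 12 fits that leave out 1 library, the exceptions being those without CTRL 8 h replicate 1 or 3 (adjusted p 0.0133 to 0.028). Of 13 tested semaphorins, guidance proteins that act through plexins, SEMA3C was higher (0.41 ± 0.078 SE, adjusted p = 0.00597). SEMA4B (-0.64 ± 0.097 SE, adjusted p = 0.00112), SEMA6B (-0.75 ± 0.14 SE, adjusted p = 0.00437) and SEMA6C (-0.88 ± 0.15 SE, adjusted p = 0.00319) were lower. Among the semaphorins tested 7.69% were higher and 23.1% lower, against 0.887% and 0.77% of all genes tested. With the GC offset, the calls of SEMA3C (adjusted p = 0.0123), SEMA6B (adjusted p = 0.0118) and SEMA6C (adjusted p = 0.018) were lost. The SEMA3C call was also lost in 10 of the 12 fits that leave out 1 library, the exceptions being those without CTRL 8 h replicate 1 or 3 (adjusted p 0.0121 to 0.0263). The SEMA6B call was lost in 7 of the 12 fits that leave out 1 library, the exceptions being those without CTRL 0 h replicate 3, CTRL 8 h replicate 1 or 3, inducible 0 h replicate 1, or inducible 8 h replicate 3 (adjusted p 0.0126 to 0.0284). The SEMA6C call was lost without inducible 8 h replicate 2, or CTRL 0 h replicate 3 (adjusted p 0.0101 to 0.0109). Of 8 tested ephrin receptors, EPHB2 (-0.71 ± 0.12 SE, adjusted p = 0.00276) and EPHA2 were lower (25%, against 0.77% of all genes tested). The EPHB2 call was lost without inducible 0 h replicate 1 or 3, inducible 8 h replicate 1 or 2, or CTRL 8 h replicate 2 (adjusted p 0.0105 to 0.0137). The interferon-γ receptor chain IFNGR2 had a log2 interaction of 0.37 ± 0.070 (SE, adjusted p = 0.00604). The IFNGR2 call was lost in 10 of the 12 fits that leave out 1 library, the exceptions being those without CTRL 8 h replicate 1 or 3 (adjusted p 0.0106 to 0.0263).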
